A study of Mus musculus with 108 samples.

Results

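The genes described here are 10 regulators known from the self-renewal of mouse spermatogonial stem cells: Id4, Id1, Id2, Id3, Zbtb16, Sall4, Foxo1, Taf4b, Nanos2 and Pax7. They were taken by gene symbol from a table of 26218 genes, and all 10 were in it. Their levels, the share of cells in which each was detected, and their co-expression were read in single cells of 4 culture lines. Foxo1 and Taf4b were detected in nearly every cell, Zbtb16 and Sall4 in most, Id3, Id4 and Id1 in a changing part of each line, and Nanos2 and Pax7 in a few cells. Id2 was close to absent.

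Of the cells, 54 were germline stem cell-like cells (GSCLCs), which are grown from pluripotent stem cells by way of reconstituted testes, and 54 were germline stem cells (GSCs), which are spermatogonial stem cells propagated from testes. The GSCLCs came from the lines GSCLC1 (30 cells) and GSCLC4 (24 cells), and the GSCs from the lines GSC1 (30 cells) and GSC2 (24 cells). The GSCLC4 line was started from reconstituted testes after 3 weeks of culture at 34 °C, and the GSC2 line from its own testes at postnatal day 7; the sources used here give no origin for GSCLC1 and GSC1. All cells had the 129/SvJcl x C57BL/6 background and the AcrAct_EGFP reporter, and all lines were grown in StemPro-34 medium with fetal bovine serum, GDNF, bFGF, LIF and EGF. Each line is 1 culture, so the line and not the cell is the replicate, and 2 lines stand against 2. How many animals, stem cell clones or passages lie behind a line is likewise not given. Any p-value therefore rests only on the spread between these cultures. In limma, the test used below, that spread is taken from the gene and from the trend over all tested genes.

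Spermatogonial stem cells renew themselves in response to GDNF from somatic cells of the testis, and a set of transcription and RNA regulators keeps them from differentiating. ID proteins lack a DNA-binding region and act by capturing E proteins, the partners that bHLH transcription factors need in order to bind DNA, and BMP signalling through SMAD proteins is a well-known inducer of Id1, Id2 and Id3. ZBTB16 (PLZF) and SALL4 are zinc finger factors that bind each other, FOXO1 is a forkhead factor that leaves the nucleus when AKT phosphorylates it, TAF4B is a germ cell subunit of the general factor TFIID, NANOS2 is an RNA-binding protein that represses mRNAs with the CCR4-NOT complex, and PAX7 marks a rare class of undifferentiated spermatogonia in the mouse testis.

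The cells were measured by SC3-seq, which amplifies the cDNA of 1 cell and reads the 3′ ends of its mRNAs. Values are RPM, reads scaled to the library size of the cell, which are not divided by transcript length because a transcript gives reads from its end only. A cell held an estimated 2.00 to 6.05 M reads (median 3.45 M) and 5748 to 10959 detected genes (median 8865). The 7 germ cell markers Dazl, Ddx4, Mael, Tdrd1, Piwil2, Mov10l1 and Tex101 summed to 6168 RPM in GSCLC1, 5724 in GSCLC4, 5464 in GSC1 and 5819 in GSC2, so the germ cell label held for all 4 lines. Of the markers of other cell types, Lum, Amh, Cyp17a1, Cyp11a1, Lhcgr, Tyrobp and Hba-a1 were at 0 in every line. Others were not: 9 of 11 fibroblast and feeder markers, 4 of 9 Sertoli markers, 3 of 9 Leydig and peritubular markers and 3 of 7 blood and endothelium markers had a mean of 5 RPM or more in at least 1 line. Fn1 had at least 131.4 RPM and Vim at least 34.98 RPM in every line. One GSC1 cell stood apart: it had the lowest number of detected genes, at -5.24 median absolute deviations from its line's median, and it held 46303 RPM of 11 fibroblast and feeder cell markers beside 1276 RPM of the 7 germ cell markers. In that cell Id3 was at 113.1 RPM, Foxo1 at 0.989 RPM and Zbtb16 at 0.330 RPM, and the other 7 regulators were at 0. Without it the mean of GSC1 was 84.5 RPM for Id3, against 85.5 RPM with it, and 334 RPM for Foxo1, against 323 RPM with it.

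The ID genes form a family of paralogs whose levels lay far apart in these cells, so the upstream sequences of the 3 paralogs found in the RefSeq promoter table are shown before their values. Each is the 250 bases before the annotated start in GRCm38.p6 (mm10), read 5′ to 3′ on the strand of the gene: Id4 at chr13:48260866-48261115 (plus strand), Id3 at chr4:136143572-136143821 (plus strand) and Id2 at chr12:25096093-25096342 (minus strand). Capitals mark GGCGCC, a palindrome known as a SMAD-binding motif of BMP-responsive genes.
Id4: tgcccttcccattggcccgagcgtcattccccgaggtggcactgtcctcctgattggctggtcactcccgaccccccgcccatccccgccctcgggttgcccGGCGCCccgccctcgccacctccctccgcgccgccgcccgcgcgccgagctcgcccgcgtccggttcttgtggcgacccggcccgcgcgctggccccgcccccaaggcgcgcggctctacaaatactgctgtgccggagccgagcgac
Id3: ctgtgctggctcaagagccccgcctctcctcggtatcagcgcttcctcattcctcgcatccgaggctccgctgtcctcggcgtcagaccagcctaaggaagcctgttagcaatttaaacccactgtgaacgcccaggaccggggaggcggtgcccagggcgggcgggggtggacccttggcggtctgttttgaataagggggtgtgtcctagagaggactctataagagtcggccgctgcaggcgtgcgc
Id2: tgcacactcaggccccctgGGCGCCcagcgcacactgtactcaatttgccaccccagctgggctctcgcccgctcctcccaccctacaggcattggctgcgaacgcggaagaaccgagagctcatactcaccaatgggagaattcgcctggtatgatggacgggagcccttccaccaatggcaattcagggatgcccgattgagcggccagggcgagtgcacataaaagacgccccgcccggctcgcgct
GGCGCC occurred once upstream of Id4, 148 bases before the start, and once upstream of Id2, 231 bases before the start, and it was not in the window of Id3. It was found in 9.59% of 32851 promoter windows of the same length. None of the 3 motifs searched contains another. The shorter SMAD motif GTCT, searched on both strands as GTCT and AGAC, had 0 matches for Id4, 2 for Id3 and 1 for Id2 and was in 82.9% of all windows, and the E-box CANNTG had 0, 0 and 1 matches and was in 66.2% of all windows. Of the 10 regulators, 6 were in the promoter table, also with Foxo1, Nanos2 and Pax7, none of which had GGCGCC in its window. The Pax7 window (chr4:139832969-139833218, minus strand) lies inside the gene span given for Pax7 below, and so not upstream of that span.

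Id4, the ID family member whose reporter marks the stem cells among undifferentiated spermatogonia in the mouse testis, lies on chromosome 13 (48261116 to 48266028, mm10). Its mean was 21.7 RPM in GSCLC1 and 20.1 RPM in GSCLC4, against 22.7 RPM in GSC1 and 37.6 RPM in GSC2. Single cells ran from 0 RPM in every line to 181.4 RPM in GSCLC1 (median 2.99) and 77.1 RPM in GSCLC4 (median 6.51), and to 144.1 RPM in GSC1 (median 3.37) and 182.9 RPM in GSC2 (median 15.0). GSC2 was the highest line and the other 3 lay within 3 RPM of each other. The share of cells with at least 5 RPM was 43.3% in GSCLC1 and 66.7% in GSCLC4, against 46.7% in GSC1 and 62.5% in GSC2, so each type had 1 line near each level. The exact binomial 95% intervals of these shares overlapped throughout, from 25.5% to 62.6% in GSCLC1 and from 40.6% to 81.2% in GSC2, and they cover counting error only.

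Id1 (chromosome 2, 152736251 to 152737410) is a classical target of BMP signalling. Its mean was 26.8 RPM in GSCLC1 and 40.95 RPM in GSCLC4, against 38.9 RPM in GSC1 and 14.9 RPM in GSC2. The means of the types overlapped, and each rested on few cells: the 3 highest cells held 52.5% of the line's total in GSCLC1 and 50.6% in GSCLC4, against 68.8% in GSC1 and 65.7% in GSC2. The highest cell had 198.8 RPM in GSCLC1 and 183.2 RPM in GSCLC4, against 457 RPM in GSC1 and 107.8 RPM in GSC2. The median cell had 2.14 RPM in GSCLC1 and 13.8 RPM in GSCLC4, against 1.03 RPM in GSC1 and 0.0071 RPM in GSC2. By share of cells the types did not overlap: 43.3% of GSCLC1 cells and 54.2% of GSCLC4 cells had at least 5 RPM, against 26.7% in GSC1 and 33.3% in GSC2.

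Id3 (chromosome 4, 136143822 to 136145392) had the highest mean of the family in every line. It reached 160.1 RPM in GSCLC1 and 47.5 RPM in GSCLC4, against 85.5 RPM in GSC1 and 56.2 RPM in GSC2. The GSCLC lines thus gave both the highest and the lowest mean. The median cell had 83.5 RPM in GSCLC1 and 20.8 RPM in GSCLC4, against 9.93 RPM in GSC1 and 44.5 RPM in GSC2, and the highest cell had 927 RPM in GSCLC1 and 305 RPM in GSCLC4, against 565 RPM in GSC1 and 215 RPM in GSC2. Id3 was spread to both ends: of all cells, 32 had under 1 RPM and 7 had from 1 to 5 RPM, while 30 had from 20 to 100 RPM and 30 had 100 RPM or more. At least 5 RPM was found in 80% of GSCLC1 cells and 62.5% of GSCLC4 cells, against 53.3% in GSC1 and 58.3% in GSC2, again without overlap between the types. With a limit of 20 RPM these shares were 76.7% in GSCLC1 and 50% in GSCLC4, against 40% in GSC1 and 54.2% in GSC2, and they overlapped.

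Id2 (chromosome 12, 25093799 to 25096092) was the ID gene at or near 0 in every line. Its line means were 0.0148 RPM in GSCLC1 and 0 RPM in GSCLC4, against 0.00824 RPM in GSC1 and 0.422 RPM in GSC2. A single cell, 1 of the 24 in GSC2, passed 5 RPM, with 10.1 RPM. Finding 0 of 30 cells in GSCLC1 allows a share of up to 10% by a limit of 3 cells, and 0 of 24 in GSCLC4 a share of up to 12.5%; the exact binomial 95% intervals reach 11.6% and 14.2%.

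Since depth differed between cells, the shares of cells with any read were also computed for 2000294 reads per cell, the lowest estimated depth. For Id1 they were 56.1% in GSCLC1 and 71.1% in GSCLC4, against 57.3% in GSC1 and 39.6% in GSC2; without thinning they were 56.7%, 75%, 60% and 50% in the same order of lines. For Id3 the thinned shares were 88.3% in GSCLC1 and 81.1% in GSCLC4, against 83.8% in GSC1 and 66.9% in GSC2; without thinning they were 90%, 87.5%, 93.3% and 70.8%. For Id4 they were 77.9% in GSCLC1 and 92.6% in GSCLC4, against 74.1% in GSC1 and 87.9% in GSC2; without thinning they were 80%, 95.8%, 76.7% and 91.7%. At this limit of a single read the types overlapped for all 3 genes, thinned or not.

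**Figure D1:**
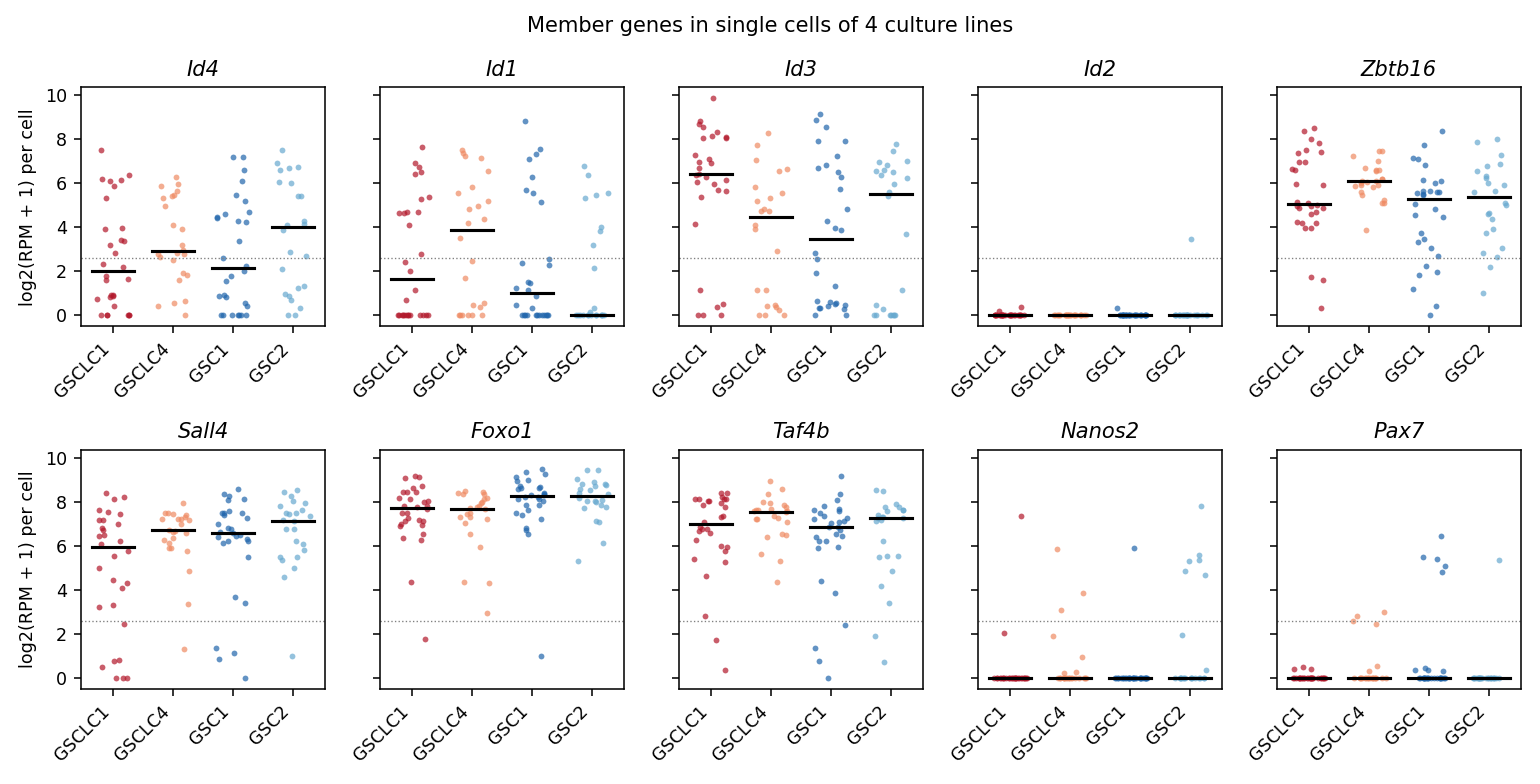
Each point is 1 cell, the vertical axis is log2(RPM + 1), the columns are the lines GSCLC1, GSCLC4, GSC1 and GSC2, the bars are line medians and the dotted line is 5 RPM. Foxo1 and Taf4b form 1 dense band in every line, Id1 and Id3 spread from 0 up to 457 RPM and 927 RPM, and Nanos2 and Pax7 lie at 0 apart from single cells.

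Single cells combined the 3 expressed ID genes in every possible way. Over all lines, 11 cells had none of Id1, Id3 and Id4 at 5 RPM or more, 41 had 1, 40 had 2 and 16 had all 3. All 3 were found in 5 GSCLC1 cells and 5 GSCLC4 cells, against 3 GSC1 cells and 3 GSC2 cells. None was found in 3 GSCLC1 cells and 1 GSCLC4 cell, against 6 GSC1 cells and 1 GSC2 cell. Id4 alone was found in 3 GSCLC1 cells and 3 GSCLC4 cells, against 6 GSC1 cells and 8 GSC2 cells. Id1 was seldom without the others: only 2 cells, both in GSCLC4, had it alone. Of the 42 cells with Id1 at 5 RPM, 34 also had Id3, where the product of the shares within each line gives 27.5 cells. In contrast, Id4 and Id3 were together in 32 cells, where that product gives 36.6, and Id4 and Id1 in 22 cells, where it gives 23.03. The excess of cells with both Id1 and Id3 came from GSCLC1 (13 cells, product 10.4), GSC1 (6 cells, product 4.27) and GSC2 (7 cells, product 4.67), while GSCLC4 had 8 cells beside a product of 8.13.

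**Figure D2:**
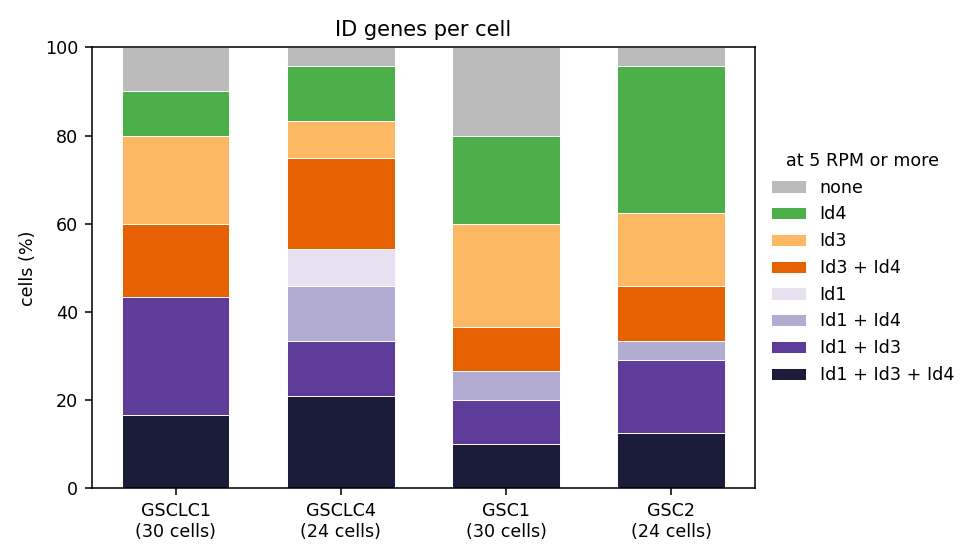
Stacked bars give the percent of cells of each line that had each combination of Id1, Id3 and Id4 at 5 RPM or more. Cells with Id4 alone (green) were 3 in GSCLC1 and 3 in GSCLC4, against 6 in GSC1 and 8 in GSC2, and cells with Id1 alone were seen in GSCLC4 only, where there were 2.

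Zbtb16 (chromosome 9, 48651797 to 48836225), which encodes PLZF, a repressor needed to maintain spermatogonial stem cells in the mouse, had a mean of 86.4 RPM in GSCLC1 and 77.6 RPM in GSCLC4, against 54.1 RPM in GSC1 and 63.2 RPM in GSC2. Both GSCLC means lay above both GSC means. The lowest, median and highest cell had 0.265, 32.2 and 358 RPM in GSCLC1 and 13.6, 66.6 and 176.7 RPM in GSCLC4, against 0, 37.5 and 334 RPM in GSC1 and 1.00, 40.3 and 258 RPM in GSC2. The median of GSCLC1 was below those of both GSC lines, so its higher mean came from its upper cells. At least 5 RPM was found in 90% of GSCLC1 cells and 100% of GSCLC4 cells, against 80% in GSC1 and 91.7% in GSC2. Only 89.7% of the values above 0 of Zbtb16 were whole reads within 0.05 read, the lowest share of the 10 genes apart from Id2.

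Sall4 (chromosome 2, 168748332 to 168767201), a zinc finger factor of stem cells and germ cells, went the other way. Its mean was 86.8 RPM in GSCLC1 and 110.2 RPM in GSCLC4, against 125.2 RPM in GSC1 and 146.6 RPM in GSC2, so both GSCLC means lay below both GSC means. The lowest, median and highest cell had 0, 60.3 and 332 RPM in GSCLC1 and 1.46, 102.7 and 245 RPM in GSCLC4, against 0, 96.1 and 384 RPM in GSC1 and 1.00, 140.6 and 373 RPM in GSC2. The single cells of the types overlapped almost fully. Sall4 reached 5 RPM in 76.7% of GSCLC1 cells and 95.8% of GSCLC4 cells, against 86.7% in GSC1 and 95.8% in GSC2.

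Foxo1 (chromosome 3, 52268337 to 52350109), the FOXO factor that marks gonocytes and undifferentiated spermatogonia in the mouse, was the most abundant of the 10 by RPM. Its mean was 233 RPM in GSCLC1 and 198 RPM in GSCLC4, against 323 RPM in GSC1 and 328 RPM in GSC2. The lowest, median and highest cell had 2.46, 207 and 569 RPM in GSCLC1 and 6.66, 204 and 356 RPM in GSCLC4, against 0.989, 307 and 722 RPM in GSC1 and 39.1, 305 and 699 RPM in GSC2. Means, medians and highest cells were therefore all lower in both GSCLC lines, and the 2 GSC means lay close together. At least 5 RPM was found in 96.7% of GSCLC1 cells and 100% of GSCLC4 cells, against 96.7% in GSC1 and 100% in GSC2, and 94 cells of the 4 lines had 100 RPM or more.

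Taf4b, the germ cell TFIID subunit that supports spermatogonial stem cell development in the mouse (chromosome 18, 14783201 to 14960424), had a mean of 154.1 RPM in GSCLC1 and 183.8 RPM in GSCLC4, against 131.04 RPM in GSC1 and 137.9 RPM in GSC2. The lowest, median and highest cell had 0.302, 125.7 and 331 RPM in GSCLC1 and 19.3, 185.95 and 495 RPM in GSCLC4, against 0, 114.3 and 578 RPM in GSC1 and 0.633, 150.5 and 365 RPM in GSC2. The means did not overlap between the types, whereas the medians did. The share of cells at 5 RPM was 93.3% in GSCLC1 and 100% in GSCLC4, against 86.7% in GSC1 and 91.7% in GSC2.

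Nanos2 (chromosome 7, 18987524 to 18988962) reached 5 RPM in 11 cells of the 4 lines. These were 1 GSCLC1 cell (162.2 RPM) and 3 GSCLC4 cells (55.9, 13.4 and 7.50 RPM), against 1 GSC1 cell (57.8 RPM) and 6 GSC2 cells (220.04, 46.5, 40.4, 38.3, 28.3 and 24.8 RPM). The line means of 5.51 RPM in GSCLC1 and 3.37 RPM in GSCLC4, against 1.93 RPM in GSC1 and 16.7 RPM in GSC2, rest on these cells, and the median cell was at 0 in every line. The share was 3.33% in GSCLC1 and 12.5% in GSCLC4, against 3.33% in GSC1 and 25% in GSC2, with 95% intervals of 9.77% to 46.7% in GSC2 and 0.084% to 17.2% in GSC1. Since 6 of the 11 cells were in GSC2, the 2 GSC lines were further apart than the 2 GSCLC lines.

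Pax7 (chromosome 4, 139737059 to 139833530) reached 5 RPM in 8 cells of the 4 lines: 2 GSCLC4 cells (6.99 and 6.03 RPM), against 5 GSC1 cells (86.3, 43.97, 41.3, 33.3 and 27.1 RPM) and 1 GSC2 cell (39.6 RPM). No GSCLC1 cell was above 0.410 RPM, and 0 of 30 cells allows a share of up to 10% by a limit of 3 cells, or 11.6% by the exact binomial 95% interval. All 6 cells above 20 RPM were GSCs, but the intervals of the shares were wide, from 5.64% to 34.7% in GSC1 and from 1.03% to 27% in GSCLC4. No cell had both Nanos2 and Pax7 at 5 RPM, where the product of the shares within each line gives 0.667 cells, so with so few cells of either kind their absence together tells nothing of the pair. Of the 11 Nanos2 cells 8 had Id4 at 5 RPM, and of the 8 Pax7 cells 2 did, where the products give 6.65 and 4.29 cells. All 8 Pax7 cells also had Sall4, Foxo1 and Taf4b at 5 RPM, where the products give 7.21, 7.83 and 7.25 cells. A cell had a median of 5.5 of the 10 regulators at 5 RPM in GSCLC1 and 6 in GSCLC4, against 5 in GSC1 and 5.5 in GSC2.

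**Figure D3:**
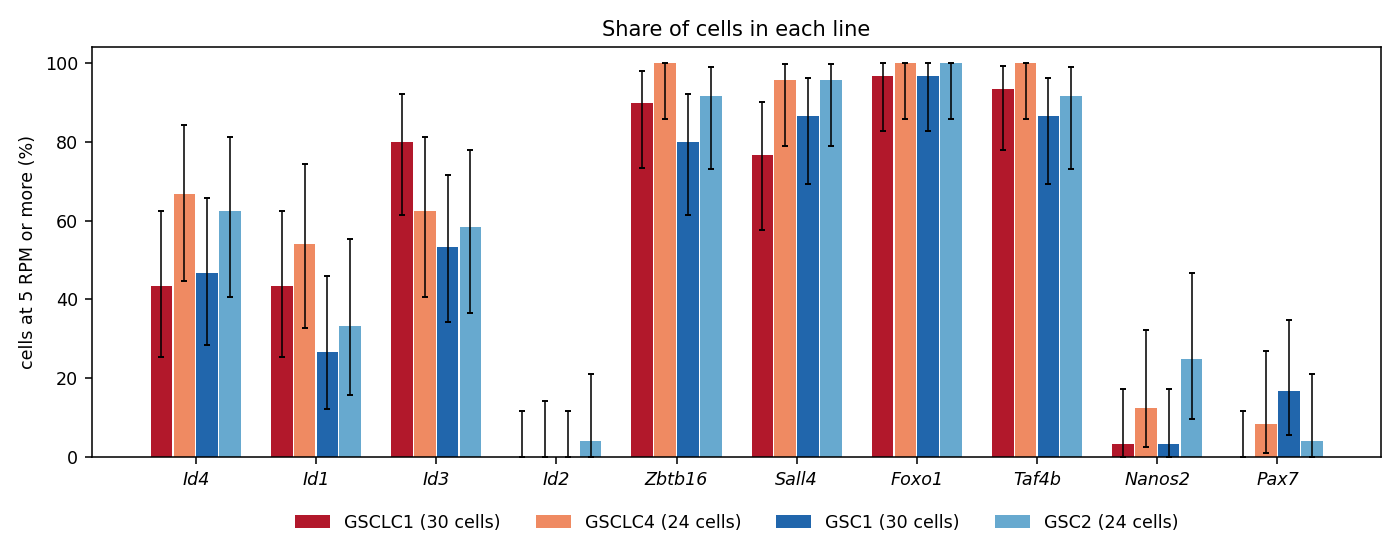
Bars give the percent of cells of each line with at least 5 RPM, from 0, with exact binomial 95% intervals that cover counting error only. Foxo1 stands at 96.7% or more in all 4 lines, Id1 stands at 43.3% and 54.2% in the GSCLC lines and at 26.7% and 33.3% in the GSC lines, and Id2 is at or near 0.

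The question of the first comparison was whether GSCLC lines carry these regulators at the level of GSC lines. By share of cells at 5 RPM, Id1, Id3 and Taf4b (3 of 10 genes) had both GSCLC shares above both GSC shares, where 22.2% of all tested genes did. None of the 10 had both below, where 6.52% of all tested genes did. With a limit of 20 RPM, Id1, Zbtb16 and Taf4b had both above, where 20.6% of all tested genes did, and Foxo1 and Pax7 both below, where 8.78% did. Id2 and Pax7 count among the 10 here but were too low to be among the tested genes. No test was run on these shares; an exact permutation test of 2 lines against 2 cannot give a two-sided p below 0.33.

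By level, none of the 8 regulators that could be tested passed the threshold. The test was limma on log2(line mean RPM + 1) over the 10526 genes whose mean reached 5 RPM in 2 or more lines, with Benjamini-Hochberg adjustment at 0.05; Id2 and Pax7 were too low to be tested, and Nanos2 passed that filter through GSCLC1 and GSC2, where single cells set its mean. In all, 8 of the 10526 genes were called, 0.0760%, of which 6 were higher and 2 lower in GSCLC lines, so few calls among 8 genes is also what the background gives. Foxo1 averaged 215 ± 25.1 RPM in the GSCLC lines and 326 ± 3.82 RPM in the GSC lines (SD, n = 2 lines each). Its log2 fold change was -0.60 (SE 0.19, 95% interval -1.0 to -0.20), with an adjusted limma p of 0.421. Its unadjusted p was 0.0071, and 929 of the 10526 genes had one under 0.05. Over the alternatives its log2 fold change stayed between -0.72 and -0.48. Its 95% interval took in 0 with no variance trend in limma (-1.30 to 0.105) and with spike-in scaling (-1.36 to 0.046).

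The other tested regulators were nearer to 0 in units of their error. Sall4 averaged 98.5 ± 16.5 RPM in the GSCLC lines and 135.9 ± 15.1 RPM in the GSC lines, a log2 fold change of -0.47 (SE 0.24, adjusted limma p = 0.621). Zbtb16 averaged 82.0 ± 6.23 RPM in the GSCLC lines and 58.6 ± 6.43 RPM in the GSC lines, at 0.48 (SE 0.28, adjusted limma p = 0.660). Taf4b averaged 168.96 ± 21.02 RPM in the GSCLC lines and 134.5 ± 4.84 RPM in the GSC lines, at 0.32 (SE 0.22, adjusted limma p = 0.717). Of the 8, Zbtb16 and Taf4b (2) had both GSCLC means above both GSC means, where 22% of all tested genes did. Foxo1, Sall4 and Id4 (3) had both below, where 17.3% of all tested genes did.

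Among the ID genes, Id4 averaged 20.9 ± 1.18 RPM in the GSCLC lines and 30.2 ± 10.5 RPM in the GSC lines, a log2 fold change of -0.47 with a 95% interval of -1.41 to 0.47 (SE 0.43, adjusted limma p = 0.823). Id1 averaged 33.9 ± 9.98 RPM in the GSCLC lines and 26.9 ± 17.0 RPM in the GSC lines, at 0.44 with an interval of -0.61 to 1.5. Id3 averaged 103.8 ± 79.6 RPM in the GSCLC lines and 70.8 ± 20.7 RPM in the GSC lines, at 0.33 with an interval of -0.65 to 1.31, and Nanos2 averaged 4.44 ± 1.51 RPM in the GSCLC lines and 9.33 ± 10.5 RPM in the GSC lines, at -0.43 with an interval of -2.40 to 1.53. Each of these intervals reaches past 1 or -1 on the log2 scale, so equal levels were not shown either. Leaving out 1 line turned the sign of Id1 (-0.22 without GSC2), Id3 (-0.54 without GSCLC1) and Nanos2 (0.87 without GSC2). Of the 8 log2 fold changes 4 were above 0, and their median was -0.06, beside 0.04 for all tested genes. Of the markers of other cells, the 11 of fibroblasts and feeder cells had a sum of 244 RPM in GSCLC1 and 357 RPM in GSCLC4, against 2102 RPM in GSC1 and 411 RPM in GSC2 (578 RPM in GSC1 without the cell that stood apart). The 9 Leydig and peritubular markers had a sum of 15.3 RPM in GSCLC1 and 14.4 RPM in GSCLC4, against 321 RPM in GSC1 (42.3 RPM without that cell) and 54.6 RPM in GSC2. Both sums were thus lower in both GSCLC lines, with and without the cell. The 9 Sertoli markers had 29.6 RPM in GSCLC1 and 96.4 RPM in GSCLC4, against 34.2 RPM in GSC1 and 6.60 RPM in GSC2, and here the types overlapped. Their part in the levels of the regulators was not tested, and leaving out that cell changed no call among the regulators.

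**Figure D4:**
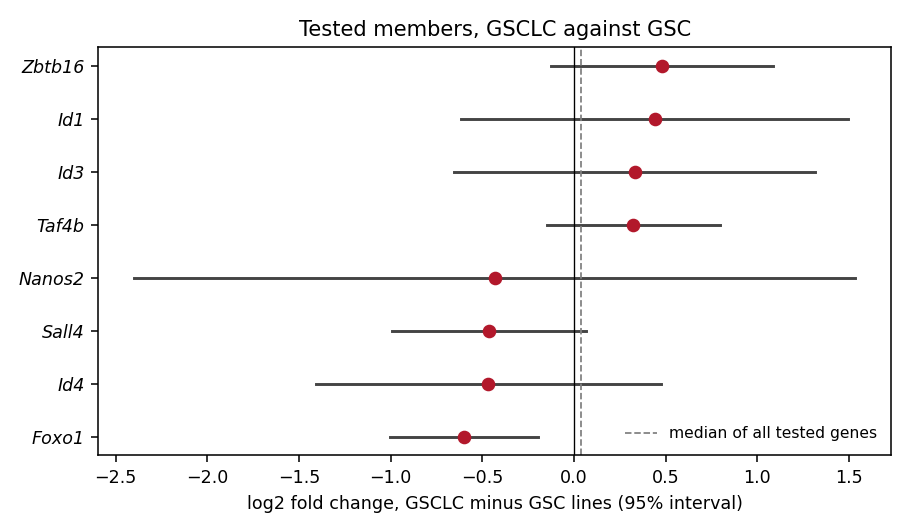
Points are the log2 fold changes of the 8 tested regulators, GSCLC lines over GSC lines (n = 2 lines each), with 95% intervals from limma, and the dashed line is the median of all tested genes, 0.04. The interval of Foxo1, -1.0 to -0.20, leaves out 0 before adjustment for 10526 genes, and the other 7 include it. With no variance trend in limma or with spike-in scaling, which are not drawn, the Foxo1 interval included 0 as well.

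The regulators differed more between cells of a line than between lines. Of the variance of log2(RPM + 1) over the cells of all lines, the lines accounted for 3.11% in Id4, 3.63% in Id1, 4.50% in Taf4b, 6.67% in Foxo1, 8.25% in Id3, 8.47% in Zbtb16 and 8.76% in Sall4, and for 2.80% in Id2, 7.38% in Pax7 and 8.56% in Nanos2, beside a median of 3.84% over all tested genes. The coefficient of variation over cells was set against the trend of all tested genes at the same level. Id3 had 1.23 in GSCLC1 (trend 0.72) and 1.59 in GSCLC4 (trend 1.00), against 1.74 in GSC1 (trend 0.98) and 1.11 in GSC2 (trend 1.05). Id1 had 1.75 in GSCLC1 (trend 1.54) and 1.45 in GSCLC4 (trend 1.06), against 2.41 in GSC1 (trend 1.34) and 1.92 in GSC2 (trend 1.84). Both thus lay above the trend in all 4 lines. Foxo1, in contrast, stayed by its trend, with 0.64 in GSCLC1 (trend 0.61) and 0.54 in GSCLC4 (trend 0.57), against 0.53 in GSC1 (trend 0.57) and 0.51 in GSC2 (trend 0.50). Zbtb16 had 1.14 in GSCLC1 (trend 0.93) and 0.55 in GSCLC4 (trend 0.82), against 1.34 in GSC1 (trend 1.18) and 1.10 in GSC2 (trend 1.00). Sall4 had 1.09 in GSCLC1 (trend 0.93) and 0.55 in GSCLC4 (trend 0.71), against 0.83 in GSC1 (trend 0.83) and 0.72 in GSC2 (trend 0.70). Both were below the trend in GSCLC4 and close to or above it in the other lines.

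The numbers in the titles of the GSC1 cells fall into separate runs, a lower-numbered one below 129 (13 cells) and a higher-numbered one from 129 on (17 cells), which the labels do not explain. Id4 averaged 33.9 RPM in the higher-numbered run and 8.15 RPM in the lower-numbered, and Sall4 82.7 RPM in the higher-numbered run and 180.7 RPM in the lower-numbered. For both genes, the runs of this 1 line were further apart than the types. With the lower-numbered run only, the log2 fold change between GSCLC and GSC lines became 0.22 for Id4 and -0.73 for Sall4. With the higher-numbered run only that of Sall4 was -0.17, its GSC1 mean then lying below both GSCLC means. That run holds the cell that stood apart, in which Sall4 was at 0. As the GSCLC1 mean of 86.8 RPM was close, this order can rest on that 1 cell. Zbtb16 averaged 37.7 RPM in the higher-numbered run and 75.5 RPM in the lower-numbered, and its log2 fold change was 0.73 with the higher-numbered run only and 0.24 with the lower-numbered. For Foxo1 the runs were near each other, at 306 RPM in the higher-numbered run and 345 RPM in the lower-numbered.

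Co-expression was described within each line, over its 24 or 30 cells, by Spearman's rho, with no p, since the cells of a line share culture and processing. The 7 regulators detected in at least 50% of the cells of every line (Id4, Id1, Id3, Zbtb16, Sall4, Foxo1 and Taf4b) form 21 pairs. The median over these pairs of the mean rho of the 4 lines was 0.046, beside 0.016 over all 29173341 pairs of 7639 genes detected as often, so the regulators did not vary as 1 block. All 4 lines gave a rho above 0 for 2 of the 21 pairs, where 8.50% of all pairs did, and a rho below 0 for 2, where 5.12% did. These counts are small and near the background.

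Both pairs with a positive rho in every line held Id1. Id1 and Foxo1 had a rho of 0.28 in GSCLC1, 0.42 in GSCLC4, 0.20 in GSC1 and 0.21 in GSC2, a mean of 0.28. Id1 and Id3 had 0.37 in GSCLC1, 0.095 in GSCLC4, 0.19 in GSC1 and 0.41 in GSC2, a mean of 0.27. Both means lay above the 99th percentile of all pairs, 0.26, but neither held in each run of GSC1. In the lower-numbered run alone Id1 and Id3 had a rho of -0.16, and in the higher-numbered run alone Id1 and Foxo1 had a rho of 0. Id1 also went with the number of detected genes of a cell, with a rho of 0.11 in GSCLC1, 0.39 in GSCLC4, 0.32 in GSC1 and 0.56 in GSC2, and with that number held fixed the mean rho of Id1 was 0.23 with Foxo1 and 0.27 with Id3. Next in order was the pair of binding partners Zbtb16 and Sall4, at 0.36 in GSCLC1, -0.023 in GSCLC4, 0.11 in GSC1 and 0.15 in GSC2.

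The lowest pairs held Id3. Id3 and Sall4 had a rho of -0.27 in GSCLC1, -0.24 in GSCLC4, -0.25 in GSC1 and -0.17 in GSC2, a mean of -0.23 that lay at the 1st percentile of all pairs, -0.23. This rested on ranks, since the mean Pearson r of log2(RPM + 1) was -0.069, with 0.067 in GSC2. The GSC1 value differed between its runs, with -0.71 in the lower-numbered cells alone and 0.12 in the higher-numbered cells alone. With the higher-numbered GSC1 cells only, the mean rho of the 4 lines was -0.14. Id3 and Zbtb16 had -0.16 in GSCLC1, -0.016 in GSCLC4, -0.32 in GSC1 and -0.20 in GSC2. Id3 and Id4 had values near 0 in the GSCLC lines and lower ones in the GSC lines, with 0.028 in GSCLC1 and -0.052 in GSCLC4, against -0.32 in GSC1 and -0.33 in GSC2; the difference between the types was not tested. When cells were scaled to their spike-in RNA instead of to their reads, the median of the 21 pairs moved to 0.13 and no pair was negative in all 4 lines. Among pairs with a rarely detected gene, Id4 and Pax7 had the lowest mean rho of all 45 pairs, -0.30, Id2 and Foxo1 had -0.22 and Id1 and Pax7 had 0.22, but Pax7 was above 0 in only 19 cells and Id2 in 4.

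**Figure D5:**
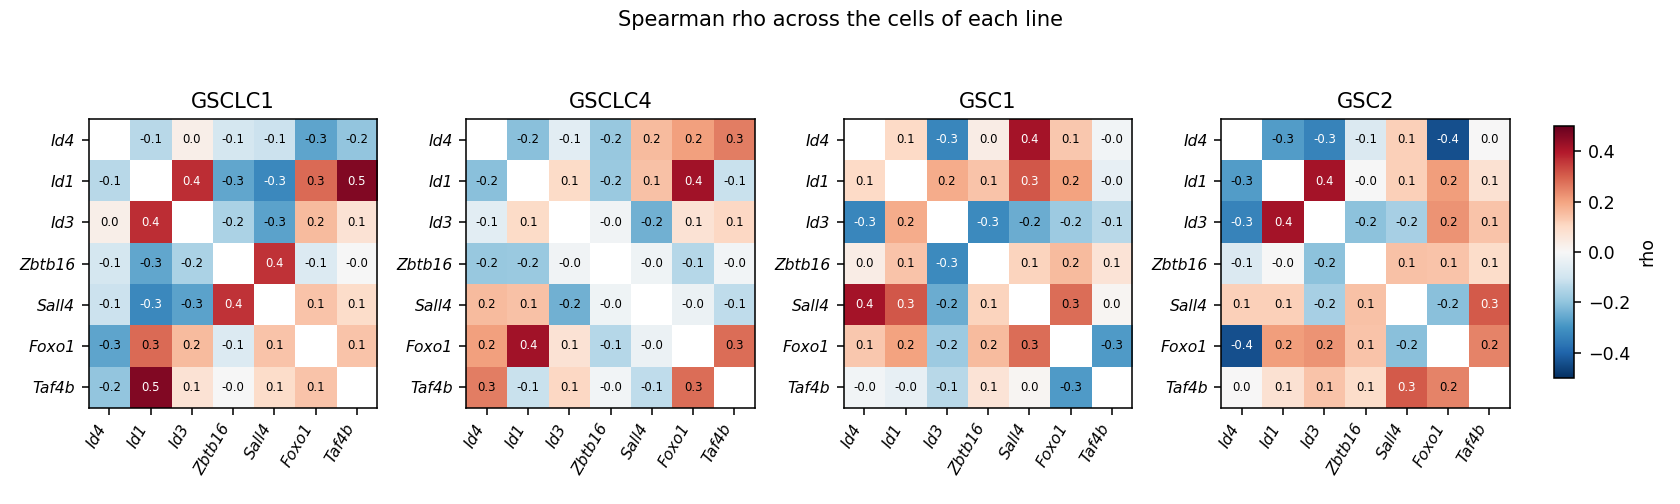
Each square is Spearman's rho between 2 regulators over the cells of 1 line (30, 24, 30 and 24 cells from left to right), red above and blue below 0. Id1 with Foxo1 and Id1 with Id3 are red in all 4 lines, Id3 with Sall4 is blue in all 4, and most other squares change colour between lines.

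The genes whose pattern over cells was most like each regulator were taken by mean within-line rho among the 7639 genes. Closest to Id4 were Lsm14a (0.39) and Pcbp2 (0.39), and Nop56 was its lowest (-0.38). Closest to Id1 were 4933427D06Rik (0.40), Kin (0.38) and Hormad1 (0.38), with Pank2 lowest (-0.32), and closest to Id3 were Kin (0.40), Galnt2 (0.38) and Erap1 (0.37), with Ier3 lowest (-0.41). Kin was thus the only gene named for 2 of the regulators, for Id1 and Id3. Closest to Zbtb16 were Pak4 (0.39), Ctnna1 (0.38) and Trip12 (0.36), with Cyhr1 lowest (-0.33). Sall4 had Ccdc6 (0.37), Gss (0.35) and Stk39 (0.35), with 0610012G03Rik lowest (-0.34). Foxo1 had Rragc (0.36), Zmym4 (0.36) and Nr3c1 (0.35), with Pcm1 lowest (-0.37), Taf4b had Fam105b (0.41), Gm15210 (0.40) and Impdh2 (0.37), with Serinc1 lowest (-0.30), and Nanos2 had Ptprg (0.33), Rrp9 (0.33) and Stx5a (0.33), with Dld lowest (-0.38). All are extremes among 7639 genes over few cells, and none of the 10 regulators was on another's list. Nanos2 was above 0 in only 18 cells, with 1 in GSC1, so its values say less than those of the other regulators.

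Against markers of germ cell state, Foxo1 gave the highest values. Its mean rho was 0.35 with Piwil2, a piRNA-binding protein of germ cells, 0.33 with Pou3f1, a GDNF-induced factor, 0.32 with Ddx4, the germ cell helicase VASA, and 0.30 with Sohlh1, a bHLH factor of differentiating spermatogonia, each positive in all 4 lines. With Dazl, a further germ cell marker, it had -0.18, negative in all 4. Taf4b and Piwil2 had a mean of 0.30, likewise positive in all 4. With the other germ cell markers the mean rho of Taf4b ran only from -1.9e-05 (Tex101) to 0.10 (Mael). With Ccnd2, a cyclin of spermatogonia entering differentiation, Foxo1 had -0.27, negative in all 4. Sall4 with Mael, another piRNA pathway gene, had -0.29, negative in all 4. The other germ cell markers did not follow Mael: Sall4 had 0.24 with Tdrd1, positive in all 4, and 0.15 with both Piwil2 and Dazl. It had -0.03 with Ddx4, -0.05 with Mov10l1 and -0.07 with Tex101. Sohlh1 gave opposite signs for 2 ID genes: its mean rho was 0.29 with Id1, positive in all 4 lines, and -0.24 with Id4, negative in all 4. Of the 8 genes of differentiating spermatogonia, Id4 had a mean rho below 0 with 4 (also Sohlh2 at -0.17, Rarg at -0.15 and Ccnd2 at -0.12) and above 0 with 4 (Stra8 at 0.15, Kit at 0.11, and Dmrtb1 and Dnmt3b at 0.05 each). These pairs were picked from the marker lists after their values were seen.

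The pathways around the regulators were followed by lists of ligands, receptors, partners and targets, of which 1 gene passed the test. The lists were chosen with earlier results of these data known, so a call within a list is not independent of those results. Among 13 E proteins and bHLH partners of ID proteins, 9 were tested and 1, Hey1, was higher in GSCLC lines. Hey1, a bHLH repressor induced by Notch, had a mean of 84.0 RPM in GSCLC1 and 96.7 RPM in GSCLC4, against 14.2 RPM in GSC1 and 21.4 RPM in GSC2. Its groups did not overlap, and its log2 fold change was 2.30 (SE 0.36, adjusted limma p = 0.0475). It had at least 5 RPM in 66.7% of GSCLC1 cells and 87.5% of GSCLC4 cells, against 23.3% in GSC1 and 33.3% in GSC2. The call was at the edge of the threshold: it held in 6 of 16 alternatives, with adjusted p-values of 0.0037 to 0.701, and the log2 fold change stayed between 1.86 and 5.69. Without GSCLC1 the adjusted p was 0.235, without GSCLC4 0.429 and without GSC1 0.105. The E protein gene Tcf3, named after its values were seen, had 221 RPM in GSCLC1 and 225 RPM in GSCLC4, against 183.6 RPM in GSC1 and 209 RPM in GSC2.

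In the BMP pathway no gene passed. Of 9 ligands 2 were tested: Bmp6 had 10.97 RPM in GSCLC1 and 10.4 RPM in GSCLC4, against 10.4 RPM in GSC1 and 17.3 RPM in GSC2, and Bmp7 had 31.98 RPM in GSCLC1 and 16.8 RPM in GSCLC4, against 26.7 RPM in GSC1 and 18.5 RPM in GSC2. The other 7 ligands were under the limit for testing. Of 11 receptors and SMADs, 8 were tested and 0 called, with a median log2 fold change of -0.15. The type I receptor gene Bmpr1a had 119.4 RPM in GSCLC1 and 88.5 RPM in GSCLC4, against 148.9 RPM in GSC1 and 176.1 RPM in GSC2 (log2 fold change -0.65, adjusted limma p = 0.495), and Smad5 and Smad1, which carry the signal, had log2 fold changes of -0.58 and 0.34. Of 10 BMP inhibitors and feedback genes, 7 were tested and 0 called. Chrd, a secreted BMP antagonist, had 28.9 RPM in GSCLC1 and 17.2 RPM in GSCLC4, against 7.96 RPM in GSC1 and 5.55 RPM in GSC2, a log2 fold change of 1.61 (SE 0.56) with an adjusted limma p of 0.473.

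Around the other regulators the lists were likewise without a call. Of all tested genes, 53.8% had a log2 fold change above 0, the share beside which the signs in each list stand. Of 15 tested genes of the SALL family and NuRD, the repressor complex that SALL4 recruits, the largest value was that of the NuRD subunit gene Mta2, at 1.04 (adjusted limma p = 0.537), and the list's median was 0.04. For Zbtb16, all 7 cofactors and targets were tested and 6 were above 0, with a median of 0.18 and Bmi1, a Polycomb gene, at 0.50. For Foxo1, 13 genes of its paralogs and the PI3K-AKT pathway were tested, with 9 below 0 and a median of -0.27, and 9 FOXO targets, with a median of -0.03. Sgk1, a kinase that phosphorylates FOXO factors, was at -0.93 and Gadd45a, a FOXO target of the stress response, at 1.29, with adjusted limma p-values of 0.507 and 0.487. Of 17 tested TFIID subunits 9 were above 0, with a median of 0.01. Taf1, with the largest fold change of that list, had 212 RPM in GSCLC1 and 291 RPM in GSCLC4, against 112.9 RPM in GSC1 and 157.01 RPM in GSC2 (log2 fold change 0.89, adjusted limma p = 0.345). Of 14 tested NANOS partners and CCR4-NOT subunits 6 were above 0, and Nanos1, a paralog of Nanos2, had 27.2 RPM in GSCLC1 and 20.9 RPM in GSCLC4, against 44.1 RPM in GSC1 and 42.4 RPM in GSC2, at -0.83 (adjusted limma p = 0.558). Of the 8 paralogs of Pax7 none was tested, and 7 were under 1 RPM in every line.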

How the data were processed

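Single cells of 4 culture lines were profiled by SC3-seq. The authors deposited 1 table of signal in RPM, with 26218 gene rows scaled to the reads of each cell and 92 spike-in rows on top. The submitters' processing notes name build mm10 and the tools TopHat 1.4.1, Cufflinks 2.2.0 and cutadapt 1.3; the sources used here do not say how reads with several positions were counted. The 6440 empty entries of spike-ins were taken as 0. Depth was estimated from the most frequent value above 0 of a cell, taken as 1 read. Within 0.05 read, 85.6% to 92.4% of the values above 0 of a cell were whole, too few for a count model.

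A line's value was the mean RPM over its cells. Tests used limma 3.58.1 in R 4.3.3 (lmFit, eBayes with trend) on log2(mean RPM + 1), a scale that understates changes of low genes, with Benjamini-Hochberg adjustment; the fit was tested on simulated data. Shares, correlations and thinning were computed in Python 3.11.15 with pandas 2.3.3 and scipy 1.17.1. Positions and promoters are from RefSeq, GRCm38.p6. Members and lists were chosen with earlier results of these data known. Named were all 10 regulators, called genes of each list or else up to 3 with the largest change, the 3 closest genes and the lowest for each tested regulator, and the 3 highest and lowest pairs. A gene that this rule also names is not reported here. Alternatives varied the pseudocount, filter, summary over cells, scaling, variance model, share limit, correlation, and left-out lines or cells. Gene sets were not tested.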

Additional observations from a re-analysis of the deposited data

How the results depend on the processing

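No regulator passed the threshold under any of the alternatives. The number of genes called, 8, became 3 with a pseudocount of 0.1 RPM, 14 with one of 10 RPM, 23 with a filter of 20 RPM, 22 with the mean of log2 values over cells (which moved the median gene by 0.19), 3 with median ratio scaling and 34 with spike-in scaling. It became 0 with no filter, with the median over cells and with no variance trend in limma, where 1388, 706 and 871 genes had an unadjusted p under 0.05. Leaving out 1 line gave 1 to 22 calls, and the lower- and higher-numbered GSC1 runs alone gave 4 and 2. Under the alternatives, 127 log2 fold changes of the regulators and Hey1 kept direction and call, 10 of Hey1 lost the call, and 5 turned: Id4 to 0.22 with the lower-numbered GSC1 run, Id1 to -0.22 without GSC2, Id3 to -0.54 without GSCLC1, and Nanos2 to 0.87 without GSC2 and 0.34 with the higher-numbered run. Leaving out 1 line gave a range of -0.22 to 1.10 for Id1, -0.54 to 1.20 for Id3 and -1.73 to 0.87 for Nanos2. The cause was not tested. Nanos2 gave no value with medians and no test at 20 RPM. With a limit of 20 RPM, 5 in place of 3 regulators had shares that did not overlap: Id1, Zbtb16 and Taf4b above and Foxo1 and Pax7 below in both GSCLC lines. Of all tested genes, which do not include Pax7, 20.6% were above and 8.78% below at that limit. The median rho of the 21 pairs, 0.046, moved to 0.13 with spike-in scaling, and of single values 14 shares and 6 mean rhos moved beyond their interval or SD. Of the 27 pathway genes taken by the naming rule, 7 changed sign in an alternative. No paired analysis was possible because the numbers in the titles are unique to each cell and pair no lines. What can be said of Id2, Nanos2 and Pax7 is limited, since they were read from few cells. With thinning, the share of cells with any Nanos2 read went from 33.3% to 31.5% in GSC2 and from 29.2% to 24.0% in GSCLC4. For Pax7 it went from 30% to 24.4% in GSC1, and for Id2 from 6.67% to 1.94% in GSCLC1.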
